A study of Mus with 4 samples.

Results

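Type I interferon induces a large set of genes, and 40 of them outside the OAS, IFIT, IRF and STAT families were followed here in DX5-negative NK cells of the mouse liver. They were chosen by name from a list of interferon-stimulated genes, with earlier results of these data known. Each was read from the array row that names it alone. Of the 40 genes, 38 had such a row, out of 30140 genes with one in the whole table, and all 38 passed the filter on low values. Trex1, whose row also names a second gene, and Ifi44 are not analysed here. The 4 arrays were 2 of wild-type (WT) cells and 2 of dnTGFbRII cells, all from female C57BL/6 mice aged 6 to 8 weeks, with no treatment named in the labels. The dnTGFbRII allele is a dominant-negative TGF-beta receptor II. The labels name neither the promoter that drives it nor the cells that carry it, and they do not say whether mice were pooled. They also do not state whether arrays of one genotype hold RNA of different animals, so p-values refer to the spread between these arrays alone, and that spread may be technical.

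Type I interferons bind the receptor formed by IFNAR1 and IFNAR2 and act through the kinases JAK1 and TYK2 on a complex with STAT2 and IRF9, which binds interferon-stimulated response elements in the promoters of target genes. The targets sense viral nucleic acid, block viral replication, attach the ubiquitin-like protein ISG15 to other proteins, or feed back on the pathway itself. Many of them also respond to interferon-gamma, which NK cells secrete, and some respond to viral sensors without interferon. The series' design text gives its question as how resident NK cells of the liver change in inflammation. The single comparison is dnTGFbRII minus WT, and no label or value here measures inflammation.

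Of the 10 markers of NK and group 1 innate lymphoid cells, 9 overlapped between the genotypes. The activating receptor gene Ncr1 ranged from 16.87 to 17.19 (log2), and Klrb1c, which encodes NK1.1, between 16.87 and 17.22. The other one, Eomes, the factor of circulating rather than liver-resident NK cells, lay at 6.78 and 6.81 in WT and 10.30 and 8.87 in dnTGFbRII cells (2.79 ± 0.49 SE, the standard error of the fit, limma unadjusted p = 0.00317), without overlap and without passing the adjusted threshold. Its part in the differences below was not tested. Tgfbr2 differed by -0.01 ± 0.14, and since its probes may or may not detect the transgene, this value is no check of the genotype. The 23 background control rows of the table had medians of 2.94 to 3.11 per array, and the highest of them reached 5.33 to 6.21. All 38 genes lay above the background median on all 4 arrays, and 2 of them, Mx2 and Ifi27l2a, had values under the highest background row. With so few arrays the precision of each value is low.

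Most of the 38 interferon target genes had somewhat higher means in dnTGFbRII than in WT cells, 2 of them by at least 2-fold (0.529% of all genes tested were), and 0 passed the adjusted threshold in limma. Of the 38 genes, 30 had a positive difference, against 47.4% of all 16245 genes tested, and the median difference was 0.17 on the log2 scale against -0.01 for all genes. The largest differences were those of Ifih1, the gene of the RNA sensor MDA5 (1.08 ± 0.40 SE, 2.12-fold), and Rsad2, the gene of viperin (1.07 ± 0.43, 2.10-fold). Rtp4 (0.69 ± 0.18), Mx1 (0.63 ± 0.12) and Zbp1 (0.53 ± 0.43) followed. These 5 genes reached a difference of 0.5, which 2.01% of all genes tested did, and 0 genes were lower by 0.5 or more, against 1.47%. In 12 genes both dnTGFbRII arrays lay above both WT arrays, which is 31.6% of the 38 against 12.6% of all genes tested. In 2 genes both dnTGFbRII arrays lay below, against 14.5% of all genes, and in the other 24 the genotypes overlapped.

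In limma, 0 of the 38 genes passed an adjusted p of 0.05 in either direction (lowest adjusted p = 0.9998), and the share among all genes tested was 0.0%. At an unadjusted limma p under 0.05 there were 5 higher genes, Mx1, Rtp4, Mx2, Ifih1 and Usp18, against 1.95% of all genes, and 0 lower genes, against 1.29%. The standard error of a difference ran from 0.12 to 0.43 with a median of 0.18. Of the 38 differences, 20 were smaller than 1 standard error and 8 were larger than 2. The median of 0.17 moved by more than 1.5 times with each array left out: it was 0.11 without WT replicate 1, 0.27 without WT replicate 2, 0.31 without dnTGFbRII replicate 1 and 0.05 without dnTGFbRII replicate 2. For a single gene, the smallest p that an exact permutation test (2-sided) allows with these arrays is 0.333.

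**Figure D1:**
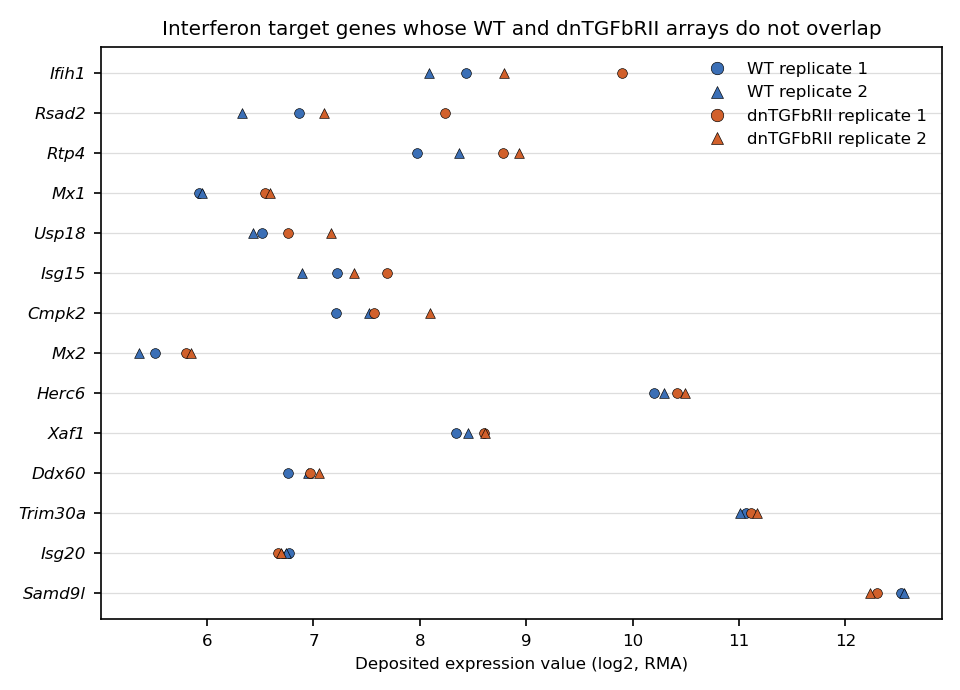
Deposited log2 values of the 14 genes whose genotypes do not overlap, with circles for replicate 1, triangles for replicate 2, blue for WT and orange for dnTGFbRII (n = 2 arrays each). In the upper 12 rows both orange points lie to the right of both blue points, with the widest gap between the genotypes for Mx1 (0.59) and narrow ones for Ddx60 (0.03) and Trim30a (0.04), and in the lowest 2 rows they lie to the left; levels are not comparable between genes.

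Within the ISG15 conjugation system, the modifier itself and the enzyme that removes it were higher in dnTGFbRII cells, while the activating and conjugating enzymes were not separated. Isg15, the ubiquitin-like modifier, measured 7.22 and 6.89 on WT replicates 1 and 2 and 7.69 and 7.38 on the dnTGFbRII replicates, a difference of 0.48 ± 0.19 SE (1.40-fold). Both dnTGFbRII values were above the higher WT value, by a gap of 0.16. Usp18, which removes ISG15 and also dampens signalling at IFNAR2, measured 6.52 and 6.43 in WT and 6.76 and 7.16 in dnTGFbRII cells (0.49 ± 0.18, limma unadjusted p = 0.0486). The WT arrays lay close together, and dnTGFbRII replicate 2 stood above replicate 1. Herc6, the ligase of the mouse system, measured 10.20 and 10.30 in WT against 10.42 and 10.49 in dnTGFbRII cells. Its difference of 0.21 ± 0.12 was small, though the genotypes did not overlap. Uba7, the activating enzyme (0.09 ± 0.38), and Ube2l6, the conjugating enzyme (-0.09 ± 0.22), overlapped between the genotypes. Uba7 spread from 10.01 to 10.94 within dnTGFbRII cells, farther than between the genotype means.

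Among sensors of viral RNA and DNA, Ifih1 had the largest difference, and both of its close relatives overlapped between the genotypes. It measured 8.43 and 8.09 on WT replicates 1 and 2 and 9.90 and 8.79 on the dnTGFbRII replicates. dnTGFbRII replicate 1 was the highest by far, and the lower dnTGFbRII array was still 0.36 above the higher WT array (limma unadjusted p = 0.0476). Ddx58, which encodes the related sensor RIG-I, differed by 0.12 ± 0.25, and Dhx58, which encodes LGP2, the third of these helicases, by 0.20 ± 0.23. Whether Ifih1 differed more than they did was not tested. Ifih1 without dnTGFbRII replicate 1 differed by 0.53.

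Zbp1, a sensor of Z-form nucleic acid that can trigger cell death, measured 9.88 and 10.60 in WT and 10.26 and 11.28 in dnTGFbRII cells. The difference of 0.53 ± 0.43 was close to its error, and dnTGFbRII replicate 1 lay below WT replicate 2. Without dnTGFbRII replicate 2 it was 0.02 and without dnTGFbRII replicate 1 it was 1.04. Ddx60, a helicase linked to RNA sensing, measured 6.76 and 6.95 in WT and 6.97 and 7.05 in dnTGFbRII cells (0.16 ± 0.14), a separation of only 0.03. Isg20, an RNA exonuclease, was on the other side, at 6.77 and 6.74 in WT and 6.67 and 6.69 in dnTGFbRII cells. Its difference of -0.08 ± 0.12 was smaller than its error, although the arrays did not overlap. Helz2, a helicase and nuclear coactivator (0.23 ± 0.30), Adar, which edits double-stranded RNA (0.14 ± 0.37), and Eif2ak2, the kinase PKR that stops translation (-0.02 ± 0.17), overlapped. Of the 9 sensors and nucleic acid enzymes with a value, 7 had a positive difference and the median was 0.16.

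Among the 11 antiviral effectors differences ran from -0.27 to 1.07, with 6 higher and 1 lower without overlap (12.6% and 14.5% of all genes tested). Mx1, a dynamin-like GTPase, had the tightest replicates of the larger differences: 5.92 and 5.95 on the WT arrays and 6.54 and 6.59 on the dnTGFbRII arrays. The difference of 0.63 ± 0.12 had the lowest limma unadjusted p of the 38 genes, 0.00423, and with each array left out in turn it stayed between 0.61 and 0.66. C57BL/6 mice, like most inbred strains, carry a deletion in Mx1 that abolishes the antiviral protein, so a transcript level says nothing of its activity here. Mx2, its paralogue, measured 5.51 and 5.36 in WT and 5.80 and 5.85 in dnTGFbRII cells (0.39 ± 0.13, limma unadjusted p = 0.0336). The shift was in the same direction as that of Mx1, but on both arrays numbered 2 the value lay under the highest background row of the array.

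Rsad2 makes a nucleotide that ends viral RNA chains, and Cmpk2, a mitochondrial nucleotide kinase, is the next protein-coding gene along the chromosome (assembly GRCm38.p6, used for gene order alone). Rsad2 measured 6.86 and 6.33 in WT and 8.24 and 7.10 in dnTGFbRII cells (limma unadjusted p = 0.061). As with Ifih1, dnTGFbRII replicate 1 was much the highest array, and the gap between the genotypes was 0.24. Cmpk2 measured 7.21 and 7.52 in WT and 7.57 and 8.10 in dnTGFbRII cells (0.47 ± 0.24). Here dnTGFbRII replicate 2 was the highest, and dnTGFbRII replicate 1 was only 0.05 above WT replicate 2. The pair of neighbours thus shared the direction but not the array that led it.

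Rtp4, an interferon-induced chaperone of membrane receptors, measured 7.97 and 8.37 in WT and 8.78 and 8.93 in dnTGFbRII cells (limma unadjusted p = 0.0163, 1.61-fold). Both dnTGFbRII arrays were at least 0.41 above the WT arrays. Xaf1, which promotes cell death by binding the inhibitor XIAP, measured 8.34 and 8.45 in WT and 8.60 and 8.61 in dnTGFbRII cells (0.20 ± 0.12). Samd9l, which restrains viral replication and the growth of blood cells, went the other way, at 12.52 and 12.55 in WT and 12.30 and 12.23 in dnTGFbRII cells. Its difference of -0.27 ± 0.12 was the lowest of the 38, with a gap of 0.22 between the genotypes and a limma unadjusted p of 0.0811. Lgals3bp, a secreted glycoprotein, had a difference of 0.47 ± 0.42 that overlapped, with 9.40 and 9.99 in WT and 9.64 and 10.69 in dnTGFbRII cells. Ifi27l2a, a small membrane protein gene, differed by 0.32 ± 0.24 at levels of at most 4.70, within the range of the background rows. Epsti1 (-0.02 ± 0.27) and Bst2, which encodes the tethering factor tetherin (-0.19 ± 0.29), overlapped.

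In the remaining families differences ran from -0.09 to 0.34, with standard errors of 0.12 to 0.40, too wide to call each gene level. Of the 3 TRIM ubiquitin ligases, Trim30a was higher without overlap, at 11.07 and 11.01 in WT and 11.11 and 11.17 in dnTGFbRII cells, but its difference of 0.10 ± 0.12 was within its error. Trim25, which acts on RIG-I, differed by 0.09 ± 0.14, and Trim21, the cytosolic antibody receptor, by 0.03 ± 0.15. Parp14, Dtx3l and Parp9 follow one another along the chromosome, and PARP9 and DTX3L form a complex. Their differences were 0.22 ± 0.16, 0.18 ± 0.17 and 0.01 ± 0.12, all with overlap, and that of Parp12 was -0.09 ± 0.40. Among genes of the nuclear bodies, Pml, which encodes their scaffold protein, differed by 0.34 ± 0.31, Daxx by 0.17 ± 0.18 and Sp100 by -0.01 ± 0.12. Ifi35 and Nmi, whose proteins bind each other, differed by 0.12 ± 0.18 and 0.04 ± 0.14, and Tor3a, a torsin ATPase, by 0.05 ± 0.14. None of these 13 genes had a limma unadjusted p under 0.05. Paralogues such as Mx1 and Mx2 or Trim30a and its close copies can share probe signal, so values of single genes of such families are uncertain.

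**Figure D2:**
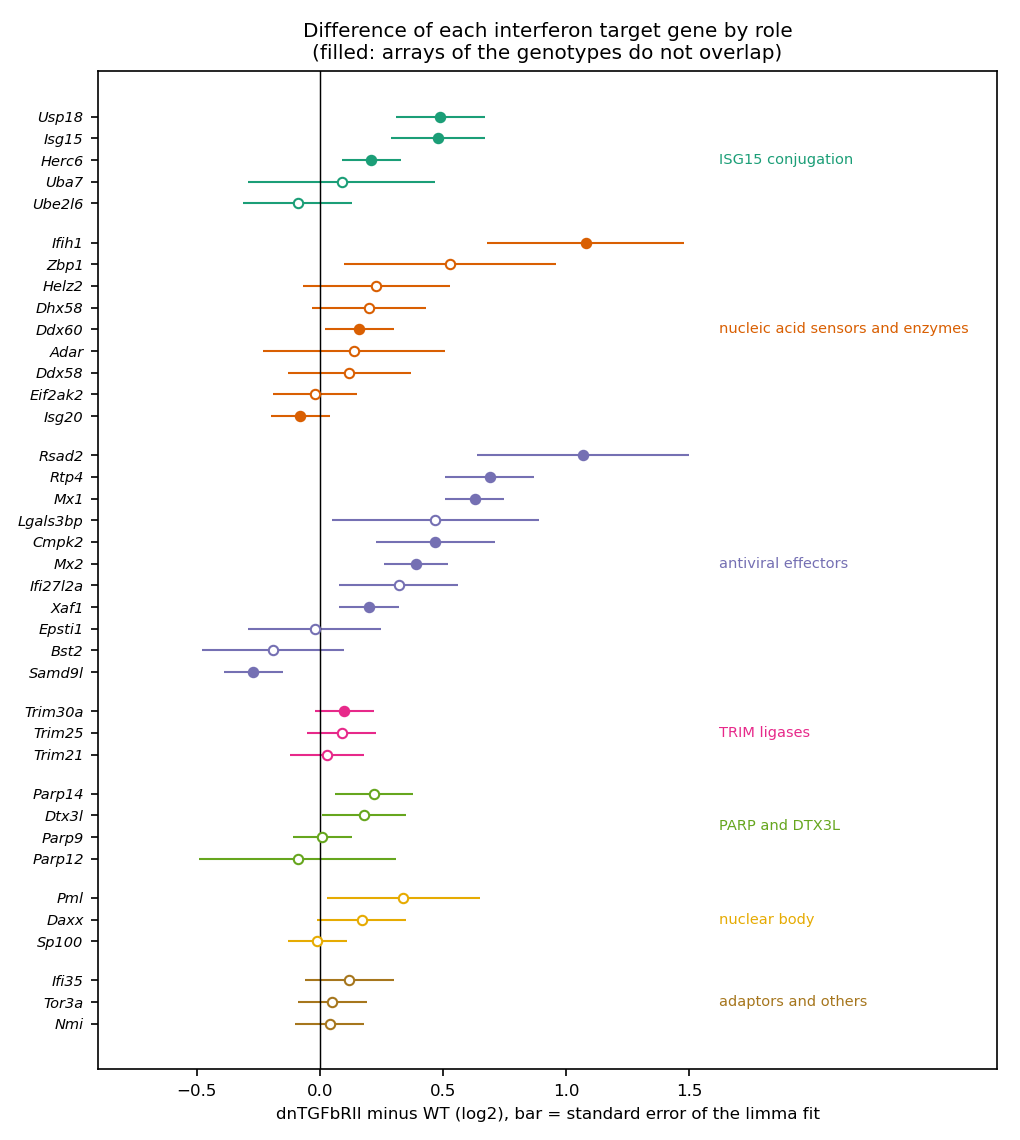
Difference dnTGFbRII minus WT (log2) of each of the 38 genes, grouped by role, with bars for the standard error of the limma fit and filled circles where the 2 arrays of one genotype do not overlap those of the other. Points to the right of 1.0 are Ifih1 and Rsad2; the TRIM, PARP, nuclear body and adaptor groups lie between -0.09 and 0.34.

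**Figure D3:**
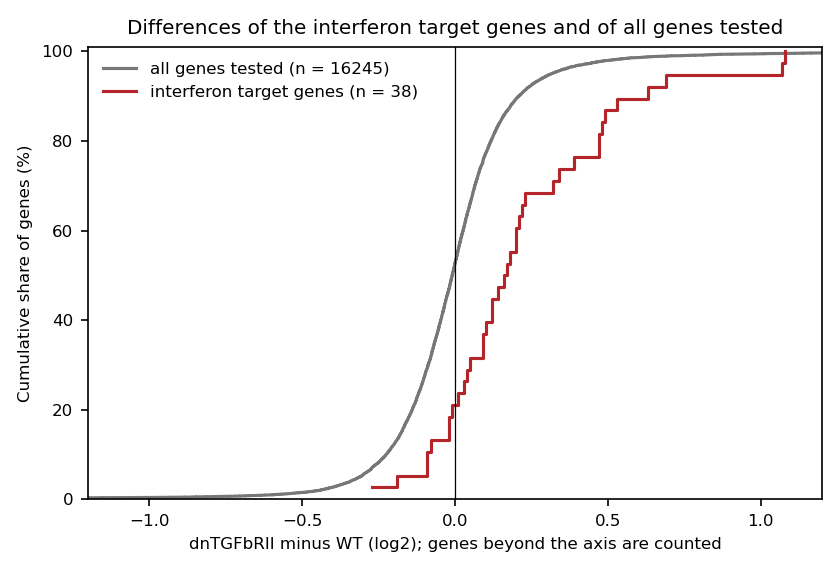
Cumulative share (%) of genes by their difference dnTGFbRII minus WT (log2) for the 38 interferon target genes (red) and all 16245 genes tested (grey). At 0 the grey line stands at about the middle while the red line is far lower, since 30 of 38 genes had a positive difference.

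The arrays of a genotype were not alike in these genes. For each gene the value was set against its own mean over the 4 arrays, and the median of these deviations over the 38 genes was -0.17 on WT replicate 1, 0.02 on WT replicate 2, 0.00 on dnTGFbRII replicate 1 and 0.21 on dnTGFbRII replicate 2. By this measure WT replicate 2 and dnTGFbRII replicate 1 were almost level. By the mean log2 level of the 38 genes, which gives the large differences more weight, the genotypes did not overlap, at 8.65 and 8.77 in WT and 8.83 and 9.03 in dnTGFbRII cells. Nor did their summed levels (log2 of the sum of linear values), at 15.70 and 15.77 against 15.79 and 15.80, close together on all 4 arrays. dnTGFbRII replicate 2 was the highest array in 27 of the 38 genes, against 4110 of all 16245 genes tested. WT replicate 1 was the lowest in 18 of the 38, against 3432 of all genes tested. In 22 of 38 genes (57.9%) the array numbered 2 was the higher in both genotypes, against 33.7% of all genes tested. The 8 spike-in control rows of the table, which carry no mouse RNA, were also higher on the array numbered 2 in both genotypes, in 8 of 8. In 7 of 8 dnTGFbRII replicate 2 was the highest. Unlike the 38 genes, of which 6 were lowest on dnTGFbRII replicate 1, the control rows were lowest there in 7 of 8. Of the control rows, 0 separated the genotypes. Whether the order of the control rows is linked to the differences was not tested. The 12 genes that were higher without overlap peaked on dnTGFbRII replicate 1 in 3 cases (Isg15, Ifih1 and Rsad2) and on dnTGFbRII replicate 2 in 9.

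**Figure D4:**
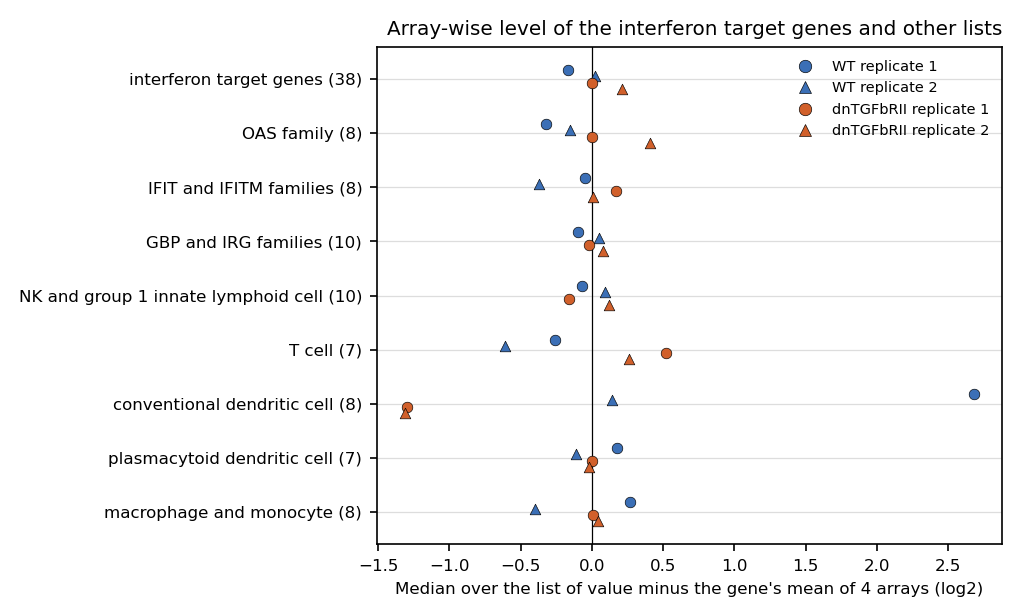
Median over each list (number of tested genes in brackets) of the value minus the gene's own mean over 4 arrays (log2), with colours and symbols for genotype and replicate. The interferon target genes run from -0.17 to 0.21 with WT replicate 2 and dnTGFbRII replicate 1 almost level, whereas conventional dendritic cell markers run from 2.68 on WT replicate 1 to -1.31 on dnTGFbRII replicate 2.

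Genes upstream of these targets differed in both directions. Among ligands, Ifna4 differed by 0.14 ± 0.14, Ifna1 by 0.11 ± 0.16 and Ifng by -0.08 ± 0.25. The last, the cytokine made by NK cells, lay between 13.66 and 14.22, and Ifnb1 did not pass the filter, at 3.86 to 4.27. Ifna1 and Ifna4 lay at 4.52 to 4.97, under the highest background row of every array. The receptor chains Ifnar1 (0.00 ± 0.20) and Ifnar2 (0.03 ± 0.18) did not separate. Of the factors that carry the signal, Irf9 lay at 9.28 and 9.37 in WT and 9.52 and 9.87 in dnTGFbRII cells (0.37 ± 0.17) without overlap, while Stat2 (0.31 ± 0.33) and Irf7, an amplifier of interferon production (0.10 ± 0.26), overlapped. The 23 tested receptors, kinases and signalling factors had a median of 0.01, with 13 of 23 positive, against 47.4% of all genes tested. Of the 23, 2 were at least 0.5 higher and 3 at least 0.5 lower, against 2.01% and 1.47% of all genes. Without overlap 4 were higher and 2 lower, near the shares of all genes tested (12.6% and 14.5%). In limma 0 passed the adjusted threshold, and 1 was higher and 1 lower at an unadjusted p under 0.05 (1.95% and 1.29% of all genes). Stat3 (0.55 ± 0.19) and the DNA-sensing adaptor Sting1 (0.44 ± 0.17) had the largest positive test statistics of that list. Tlr3, a sensor of double-stranded RNA found in dendritic cells, had the largest negative one (-2.24 ± 0.79). It stood at 7.25 and 4.89 on WT replicates 1 and 2 and 3.82 and 3.84 on the dnTGFbRII arrays, in the order of the dendritic cell markers.

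The families of classical interferon targets set beside these genes held a few larger differences. The 8 OAS genes encode enzymes that make the activator of a host RNA nuclease, or relatives of these enzymes. Their differences had a median of 0.24, with 7 positive and 3 higher without overlap (12.6% of all genes tested). Those were Oasl1 (1.83 ± 0.23), Oas1a (1.41 ± 0.17) and Oas1g (1.00 ± 0.16). The 8 IFIT and IFITM genes had a median of 0.21, with 4 positive, all 4 without overlap, and 4 negative. Ifit1 (1.99 ± 0.31), Ifit2 (0.86 ± 0.19) and Ifit3 (0.45 ± 0.20) had the largest test statistics. Ifit1bl1 differed by 0.54 ± 0.25 and Ifitm2 by -0.55 ± 0.50. The 10 GBP and IRG genes, mostly targets of interferon-gamma, had a median of 0.07 with 6 positive. Gbp3 (0.71 ± 0.16), Iigp1 (0.52 ± 0.18) and Igtp (0.06 ± 0.12) were higher and Gbp8 was lower (-0.15 ± 0.12), each without overlap. Over all genes tested these shares were 12.6% and 14.5%. Iigp1 lay at 3.89 to 4.70, under the highest background row of every array. Within each of these families, as among the 38 genes, large differences stood beside small ones, such as those of Oas1c (0.02 ± 0.19), Ifit3b (-0.04 ± 0.15) and Gbp4 (0.00 ± 0.13). No test compared the lists with each other, and 0 genes of these families passed the adjusted threshold in limma. At an unadjusted p under 0.05 there were 3 higher OAS, 2 higher IFIT and 2 higher GBP or IRG genes, against 1.95% of all genes.

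Markers of other cells differed between the arrays beside these genes. In bulk sorted cells fewer cells of a type and less RNA per cell cannot be told apart. Nor can RNA of a marker gene that the NK cells themselves make. Of 8 tested conventional dendritic cell markers (10 listed), 8 were lower in dnTGFbRII cells, with a median of -2.89. Their summed level (log2 of the sum of linear values) ran from 16.62 to 17.30 in WT and from 15.73 to 16.40 in dnTGFbRII cells. Itgax, which overlapped (-0.30 ± 0.27), made up most of the dnTGFbRII sums, at 15.61 and 16.32. Those sums thus mainly follow Itgax, and which cells made its RNA was not tested. Clec9a, a receptor of cross-presenting dendritic cells, stood at 9.83 and 6.71 on WT replicates 1 and 2 and at 4.77 and 4.82 on the dnTGFbRII replicates. Of 7 tested T cell markers (10 listed), 6 were higher, with a median of 0.78 and summed levels of 15.86 to 15.99 in WT and 15.67 to 15.93 in dnTGFbRII cells. Cd3g, the 1 lower gene (-0.45 ± 0.13), made up most of each sum, at 15.34 to 15.90. Cd4 lay at 4.71 to 4.90 and Cd8a at 6.28 to 7.56. Whether T cells or the sorted NK cells made the RNA of the CD3 chains was not tested. The 5 genes higher without overlap (12.6% of all genes tested) were led by Cd3e (2.78 ± 0.68) and Cd3d (2.13 ± 0.23). Plasmacytoid dendritic cells, the main makers of type I interferon, had 7 tested markers of 8, with a median of -0.09 and summed levels of 11.44 to 11.73 and 11.51 to 11.67. Siglech, which defines them, lay at 5.90 and 4.95 in WT and 5.08 and 4.81 in dnTGFbRII cells, and Bst2 is on that list too. Except on WT replicate 1, Siglech lay under the highest background row of the array. Of 8 tested macrophage and monocyte markers (10 listed), 6 had a positive difference, with a median of 0.24 and summed levels of 10.78 to 11.77 in WT and 12.71 to 12.87 in dnTGFbRII cells. Ly6c2, which NK and T cells also express, differed by 2.68 ± 0.37 (limma unadjusted p = 0.00111, not past the adjusted threshold) and Ccr2 by 0.43 ± 0.20, both without overlap. The other 6 overlapped, and Cd68 (-0.39 ± 0.41) and Adgre1 (-0.14 ± 0.33) were the 2 lower ones. Ly6c2, at 12.41 and 11.74, and Lyz2, at 9.25 and 11.02, made up most of the dnTGFbRII sums. The 3 tested neutrophil markers (6 listed) had positive differences with a median of 0.82, at summed levels of 5.76 to 5.79 in WT and 5.96 to 6.86 in dnTGFbRII cells. Apart from S100a9 on dnTGFbRII replicate 1 (5.99), their values lay under the highest background row of the array. Alb, the only tested hepatocyte marker of 5, differed by -1.16 ± 0.62 without overlap and was highest on WT replicate 2 (6.62). On the other arrays Alb lay under the highest background row. Both tested B cell markers (5 listed) overlapped. The part of these cells in the interferon target differences was not tested. Without WT replicate 1, the array with the most dendritic cell signal, 25 of the 38 genes had a positive difference, against 49.0% of all genes tested in that setting. In 15 both dnTGFbRII arrays lay above the remaining WT array, against 26.9% of all genes, a count that grows by construction with 1 array left. WT replicate 2 kept part of the dendritic cell signal (Clec9a at 6.71). Leaving out WT replicate 1 is therefore no test of the part of these cells.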

How the data were processed

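RNA of sorted liver DX5-negative NK cells was hybridised to 4 Affymetrix arrays, 2 per genotype, per the labels. The deposited log2 values come from the authors' use of RMA and Affymetrix Expression Console, per the submitters' processing notes. Versions and genome build: not given in the sources used here. RMA brings arrays to one distribution, so a shift of most genes would not show.

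The platform annotation names genes for 32750 of 72688 rows, with 1 distinct symbol for 30604 and several for 2146. Symbols were updated to GRCm38.p6 (30300 rows matched). Each gene took its row with the highest mean, and the 38 genes reported had only 1 row each. A gene was tested if its mean exceeded 4.217, the middle value of all rows (16245 genes).

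The test was limma 3.58.1 (R 4.3.3, lmFit and eBayes, 2-sided, 2 residual and 2.54 prior degrees of freedom), with Benjamini-Hochberg adjustment over the whole set of tested genes at a threshold of 0.05. The script was tested on simulated data. Each difference is dnTGFbRII minus WT, in log2 units. No test was made over the genes as a list.

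The 40 genes, the other lists and the markers were chosen with earlier results of these data known. Values on every array are given for genes without overlap between the genotypes or with a difference of at least 0.5. Of the other pathway genes, those named are up to 3 per list with the largest test statistics and Ifnar1, Ifnar2, Stat2, Irf7 and Irf9. Ifnb1, Oas1c, Ifit1bl1, Ifit3b, Ifitm2, Gbp4, Igtp and the array values of Lgals3bp were chosen after they were seen. Promoter sequences were not analysed here. Alternatives were other filters, normalizations, priors and row choices, the replicate number as a block, and each array left out in turn.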

Additional observations from a re-analysis of the deposited data

How the results depend on the processing

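With 2 arrays per genotype, the direction of small differences depended on single arrays. Of 414 differences of the 38 genes under 11 alternative settings, 383 kept their sign. That count says little, since the filters, the prior, the row choice and the replicate block leave each of these differences unchanged. Of the 31 that turned, 28 did so with an array left out. Apart from left-out arrays the sign turned for Eif2ak2 (0.01) and Sp100 (0.03) when quantile normalization was repeated and for Parp9 (-0.01) with each array centred on its median. With each array left out, differences that turned ranged from -0.29 to 0.57 for Adar, -0.56 to 0.18 for Bst2, -0.13 to 0.36 for Ddx58, -0.09 to 0.48 for Dhx58, -0.19 to 0.15 for Eif2ak2, -0.36 to 0.31 for Epsti1, -0.08 to 0.53 for Helz2, -0.06 to 0.30 for Ifi35, -0.06 to 0.99 for Lgals3bp, -0.06 to 0.14 for Nmi, -0.62 to 0.44 for Parp12, -0.03 to 0.05 for Parp9, -0.05 to 0.72 for Pml, -0.05 to 0.02 for Sp100, -0.04 to 0.14 for Tor3a, -0.12 to 0.17 for Trim21, -0.38 to 0.55 for Uba7 and -0.37 to 0.19 for Ube2l6. Genes chosen for no overlap could not turn when an array was left out. Positive differences numbered 24 to 31 of 38 with an array left out (24 without dnTGFbRII replicate 2), and the median ran from 0.05 to 0.31. Genes without overlap then numbered 15 to 30 higher and 3 to 7 lower, counts that grow by construction with a lone array in a genotype.

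In limma, 0 of the 38 genes passed an adjusted p of 0.05 under any setting run, a false discovery rate of 0.1 included. Over all genes tested 6 lower genes passed without WT replicate 2 and 0 under every other setting, so left-out arrays gave 0 to 6. At an unadjusted p under 0.05, the 5 higher interferon target genes became 2 with the stricter filter (34 genes left) and 2 to 7 with an array left out, and the 0 lower genes became 1 with no filter and 0 to 1 with an array left out. Over all genes the 316 higher and 209 lower genes became 790 and 469 with no filter, 109 and 75 with the stricter filter (fewer genes tested), and 159 to 607 and 67 to 353 with an array left out. With the replicate number as a block there were 757 higher and 710 lower genes at an unadjusted p under 0.05, 10 higher and 1 lower among the 38, and 0 past the adjusted threshold. Arrays of the same number deviated together (r = 0.5105 across genes), but with 2 pairs, and labels that do not say what the number marks, the numbers were not taken as pairs. The cause of these changes was not tested.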
